A study of Mus musculus with 6 samples.

Results

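The 10 genes described here belong to bone morphogenetic protein (BMP) signalling and were followed in mDE6 cells with and without a hairpin against Arl4c. They were taken by symbol from the deposited table: the ligand genes Bmp2, Bmp4 and Bmp7, the antagonist gene Grem1, and the response genes Id1, Id2, Id3, Smad6, Smad7 and Bambi. All 10 were among the 22032 genes listed, and 9 of them averaged at least 1 CPM over the libraries and entered the test, which covered 14740 genes. Bmp2 did not pass the filter and is given by its values alone. RNA was sequenced from mDE6, a mouse cell line, in 3 libraries with a control short hairpin RNA (shControl) and 3 with a hairpin (shArl4c) that targets Arl4c, the gene of an ARF-family small GTPase. Libraries keep their numbers from the table, 1 to 3 for shControl and 2 to 4 for shArl4c. The labels give no other treatment, no vector or hairpin sequence, and neither say whether the cells were a clone nor whether the libraries of a group were separate cultures. P-values therefore measure the spread between these libraries, which may be technical, and effects of less Arl4c cannot be told apart from other effects of the hairpin or of the cultures.

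BMP ligands are secreted dimers of the TGF-beta superfamily. They bind pairs of type I and type II receptor kinases, which phosphorylate SMAD1, SMAD5 and SMAD9, and these enter the nucleus with SMAD4 and switch on target genes. The ID genes are classical direct targets and encode helix-loop-helix proteins that lack a DNA-binding region and hold back the bHLH transcription factors they pair with. SMAD6 and SMAD7 are inhibitory SMADs, BAMBI is a receptor-like protein without a kinase domain that dampens signalling at the membrane, and gremlin 1 (GREM1) captures BMP2, BMP4 and BMP7 outside the cell. In developing teeth and bone, BMP signals pass between epithelium and mesenchyme and promote osteoblast and odontoblast differentiation, and the series title places the study in that setting.

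Sequence at the starts of the response genes Id2, Id3 and Smad6 is shown as description. Id1 and Bambi, the response genes that changed most, are missing from the sequences at hand. Whether such sequence bears on the changes was not tested. RefSeq promoter windows of the mouse build GRCm38.p6, 300 bases long (250 before and 50 after the annotated start), were at hand for 5 of the 10 genes: Bmp4, Grem1, Id2, Id3 and Smad6. The 250 bases before the start are printed for Id2 (chr12:25096093-25096342, minus strand) and Id3 (chr4:136143572-136143821, plus strand). For Smad6 a stretch of 20 bases centred on the start is printed (chr9:64022050-64022069, minus strand). Capitals mark the letters GGCGCC, a GC-rich sequence bound by BMP-activated SMADs, and GTCTAGAC, a palindrome made of the SMAD-binding letters GTCT and their reverse complement AGAC.
Id2: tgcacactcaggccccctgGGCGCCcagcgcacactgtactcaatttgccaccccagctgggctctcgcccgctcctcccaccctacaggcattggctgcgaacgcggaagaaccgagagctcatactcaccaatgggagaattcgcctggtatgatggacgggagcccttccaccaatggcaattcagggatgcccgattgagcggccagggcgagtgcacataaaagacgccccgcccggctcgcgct
Id3: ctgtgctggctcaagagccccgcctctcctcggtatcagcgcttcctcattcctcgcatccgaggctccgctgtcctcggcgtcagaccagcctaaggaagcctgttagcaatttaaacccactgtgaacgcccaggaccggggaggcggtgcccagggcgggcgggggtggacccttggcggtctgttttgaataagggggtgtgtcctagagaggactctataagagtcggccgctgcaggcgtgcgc
Smad6: caaagtGTCTAGACtggcat

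Both strands were searched over the full 300 bases, and GTCT also counts where it lies inside GTCTAGAC. GGCGCC was found once in Id2, with its first base 231 bases before the start, and once in Grem1, 78 bases before it. These letters occurred in 11.87% of all 32851 promoter windows. GTCTAGAC was found once, in Smad6, beginning 4 bases before the annotated start and running across it, and it occurred in 70 windows, or 0.21%. The short letters GTCT were present in all 5 windows, from 1 match in Id2 to 6 in Grem1, and in 87.98% of all windows. A match describes the letters of the window and does not show binding.

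Depth was 12316770 to 14976113 reads per library, worked out from the CPM values, and 1 read equalled 0.0672 to 0.0827 CPM. These values were reads scaled by library size and by a further size factor of the authors, 0.981 to 1.03 per library. The targeted gene, Arl4c, stood at 20.1 to 21.0 CPM in shControl and at 6.75 to 7.42 CPM in shArl4c, 2.94-fold lower. Of the cell type markers looked at, the 6 mesenchymal genes (Vim, Col1a1, Col1a2, Twist1, Prrx1 and Pdgfra) summed to 30250 to 31650 CPM per library in shControl and 18230 to 19060 CPM in shArl4c. Col1a1 (17787 and 10139 CPM) and Col1a2 (9443 and 5240 CPM) made up most of this sum; with Prrx1 they fell, Pdgfra rose 1.70-fold, and Vim and Twist1 did not pass. Of 6 epithelial genes, Epcam was not listed, and Krt5, Krt14, Krt8, Krt18 and Cdh1 together reached 1.03 to 1.66 CPM and 1.20 to 2.25 CPM. Cdh1 had no read in any shArl4c library. Of 4 endothelial genes, Cdh5 was not listed, and Pecam1, Kdr and Tek together stayed at or below 2.07 CPM in every library. The 4 leukocyte genes Ptprc, Cd74, Lyz2 and Cd68 summed to 4.80 to 5.32 CPM in shControl and 6.75 to 8.02 CPM in shArl4c. Only Cd68 of these was called, with means of 2.79 and 5.77 CPM, while the means of Ptprc (0.0940 and 0.0505 CPM), Cd74 (0.933 and 0.574 CPM) and Lyz2 (1.24 and 1.03 CPM) were not higher in shArl4c. In such bulk RNA, fewer cells of a type and less RNA per cell cannot be told apart. The part of these markers in the results below was not tested.

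Of the 9 tested genes, 3 rose in shArl4c (Bmp7, Id1 and Id2), 2 fell (Bmp4 and Bambi) and 4 did not pass the test (Grem1, Id3, Smad6 and Smad7). The test was limma on log2(CPM + 1), with p adjusted by Benjamini and Hochberg over all tested genes and called under 0.05. By the same rule 36.9% of all tested genes were called, 18.9% higher and 18.0% lower. The median log2 fold change of the 9 was 0.05, against 0.01 over all tested genes. The 2 groups did not overlap in 7 of the 9, while they did not overlap in 46.8% of all tested genes. Values below are mean ± SD over n = 3 libraries per group, folds are ratios of mean CPM, and log2 fold changes are on the log2(CPM + 1) scale, where changes at low levels come out too small.

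**Figure D1:**
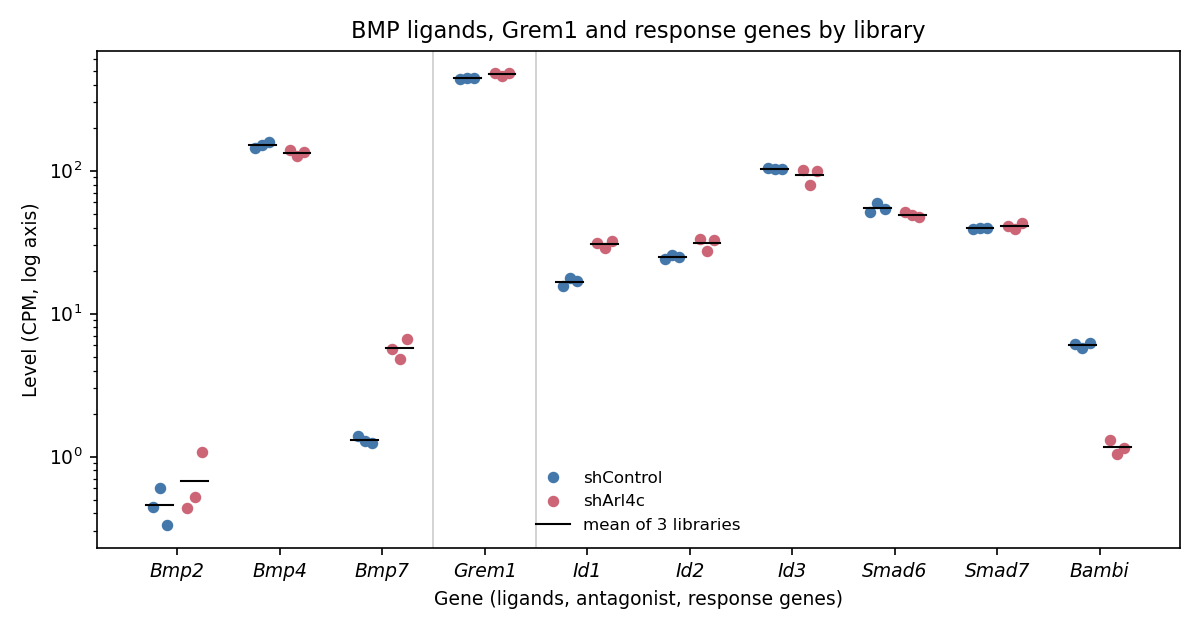
Level of each gene in CPM on a log axis, with 1 point per library (blue shControl, red shArl4c, 3 of each) and a black line at the mean of the 3 libraries. Bmp7 and Id1 sit higher in all shArl4c libraries and Bambi lower in all of them, while Smad6 and Smad7 overlap between the groups.

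The ligand genes moved in different ways. Bmp4 was by far the most abundant of them and fell by a small amount. Its shControl libraries held 145, 152 and 160 CPM, and its shArl4c libraries held 139, 126 and 135 CPM. Every shArl4c library lay below every shControl library, but the highest of the former and the lowest of the latter were close. The means were 152 ± 7.23 and 133 ± 6.70 CPM, 1.14-fold lower, and the log2 fold change was -0.19 (SE 0.05; limma adjusted p = 0.00382). This call was lost when limma was run without its trend and robust moderation (limma adjusted p = 0.0614).

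Bmp7, a ligand of both epithelial and mesenchymal tissues, had the largest rise of the 10 genes. Its level was 1.40, 1.28 and 1.24 CPM in the shControl libraries and 5.66, 4.80 and 6.66 CPM in the shArl4c libraries, resting on 15 to 19 reads and on 64 to 87 reads per library. The groups were far apart relative to their spread. The mean went from 1.31 ± 0.0846 to 5.71 ± 0.931 CPM, 4.37-fold higher, and the log2 fold change was 1.53 (SE 0.15; limma adjusted p = 1.38e-07). On that scale Bmp7 stood at the 99.65th percentile of all tested genes. It was still the scarcer ligand: per kilobase of exon Bmp7 reached 1.56 CPM per kb in shArl4c, against 64.5 CPM per kb for Bmp4.

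Bmp2, a ligand that drives bone formation, was close to the limit of detection. It had 6, 9 and 4 reads in shControl, or 0.443, 0.605 and 0.331 CPM, and 6, 7 and 14 reads in shArl4c, or 0.436, 0.525 and 1.07 CPM. The groups overlapped, with shArl4c 4 the highest and shControl 3 the lowest library. With no filter on low values, its log2 fold change was 0.19 (SE 0.16, limma adjusted p = 0.471), so a difference was not detectable at this depth.

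Grem1, the antagonist gene, was the most abundant of the 10 in both groups. The shControl libraries held 438, 444 and 445 CPM and the shArl4c libraries 480, 461 and 479 CPM. All shArl4c libraries were above all shControl libraries, by little. The log2 fold change was 0.10 (95% interval 0.02 to 0.18) and did not pass (limma adjusted p = 0.0541). Without shArl4c 3, the lowest library of its group, Grem1 passed with a log2 fold change of 0.12 (limma adjusted p = 0.00104). Leaving that library out raised the calls over all genes as well, to 6625 of 14685 tested, against 5445 of 14740 with all libraries.

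The balance of ligand to antagonist transcripts was read within each library as a log2 ratio of CPM + 1. The ratio of Bmp4 to Grem1 was -1.53 ± 0.06 in shControl and -1.82 ± 0.04 in shArl4c, a difference of -0.29. The ratio of Bmp7 to Grem1 went from -7.59 ± 0.06 to -6.15 ± 0.18, a difference of 1.43, and that of Bmp4 to Bmp7 from 6.05 ± 0.12 to 4.33 ± 0.16. Each of these 3 gave the smallest p that an exact two-sided permutation test of 3 against 3 libraries allows, 0.1 (adjusted over the 10 pairs compared, 0.125), so no such difference could pass. Bmp2 to Bmp4 (exact permutation p = 0.2) and Bmp2 to Grem1 (exact permutation p = 0.6) overlapped between the groups.

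The 3 ID genes, read here as targets of BMP-activated SMADs, did not change alike. Id1 rose most. Levels of 15.6, 17.8 and 16.8 CPM in shControl compared with 31.2, 28.7 and 32.0 CPM in shArl4c. The lowest shArl4c library was well above the highest shControl library. The means were 16.8 ± 1.09 and 30.6 ± 1.72 CPM, 1.83-fold higher, and the log2 fold change was 0.83 (SE 0.08; limma adjusted p = 3.56e-08), at the 98.01st percentile of all tested genes.

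Id2 rose less. Its levels were 24.2, 25.6 and 25.1 CPM in shControl and 33.3, 27.2 and 32.9 CPM in shArl4c. The groups did not overlap, and shArl4c 3 lay nearer to shControl than to the other libraries of its own group. The mean went from 24.9 ± 0.680 to 31.1 ± 3.39 CPM, 1.25-fold higher, and the log2 fold change was 0.30 (SE 0.08; limma adjusted p = 0.00404).

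Id3 did not pass. The shControl libraries held 104, 103 and 102 CPM, and shArl4c 2, 3 and 4 held 100.5, 79.2 and 99.3 CPM. All shArl4c libraries were lower, but shArl4c 2 and 4 lay just under shControl, and shArl4c 3 was far below every other library. The log2 fold change was -0.15 (95% interval -0.34 to 0.04, limma adjusted p = 0.203) and -0.04 without shArl4c 3 (limma adjusted p = 0.455).

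Within libraries, the log2 ratio of Id1 to Id3 was -2.55 ± 0.10 in shControl and -1.56 ± 0.12 in shArl4c, a difference of 0.98. The ratio of Id2 to Id3 differed by 0.45 and that of Id1 to Id2 by 0.53. None of the 3 ratios overlapped between the groups, and each had the smallest exact permutation p, 0.1 (adjusted 0.125). The fall of shArl4c 3 in Id2 and Id3 was shared, since its Id2 to Id3 ratio, -1.51, was close to the -1.57 and -1.56 of shArl4c 2 and 4. Per kilobase of exon, Id3 was the most abundant of the family in both groups (80.4 and 72.7 CPM per kb), followed by Id1 (14.4 and 26.4 CPM per kb) and Id2 (10.2 and 12.8 CPM per kb).

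The inhibitory SMAD genes, feedback targets that BMP and TGF-beta signalling both reach, did not pass the test. For Smad6, levels of 51.0, 59.1 and 53.9 CPM in shControl compared with 51.1, 48.9 and 47.5 CPM in shArl4c. The groups overlapped, through shControl 1 and shArl4c 2. The log2 fold change was -0.15 (95% interval -0.27 to -0.02, limma adjusted p = 0.0619). It passed without shControl 1 (-0.19, limma adjusted p = 0.0357) and without shArl4c 3 (-0.14, limma adjusted p = 0.0395). After quantile normalization it passed as well (-0.16, limma adjusted p = 0.0374). Over all tested genes these settings called, in that order, 4381, 6625 and 5667 genes, against 5445 in the main fit.

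For Smad7, the shControl libraries held 39.0, 39.5 and 39.7 CPM and the shArl4c libraries 41.3, 38.8 and 42.9 CPM. The range of shArl4c enclosed that of shControl. The log2 fold change was 0.05 (95% interval -0.07 to 0.18, limma adjusted p = 0.520), so the interval leaves out changes of the size seen in Id1. The ratio of Smad6 to Smad7 differed by -0.20 between the groups (exact permutation p = 0.1, adjusted 0.125).

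Bambi fell more than any other of the 10 genes. BAMBI lowers both BMP and TGF-beta signalling, and its gene is also known as a target of beta-catenin. Its level was 6.13, 5.78 and 6.21 CPM in shControl, from 75 to 86 reads per library, and 1.31, 1.05 and 1.15 CPM in shArl4c, from 14 to 18 reads. The groups were separated by several times their spread. The means were 6.04 ± 0.225 and 1.17 ± 0.130 CPM, 5.17-fold lower, and the log2 fold change was -1.70 (SE 0.14; limma adjusted p = 1.53e-08), at the 0.88th percentile of all tested genes.

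**Figure D2:**
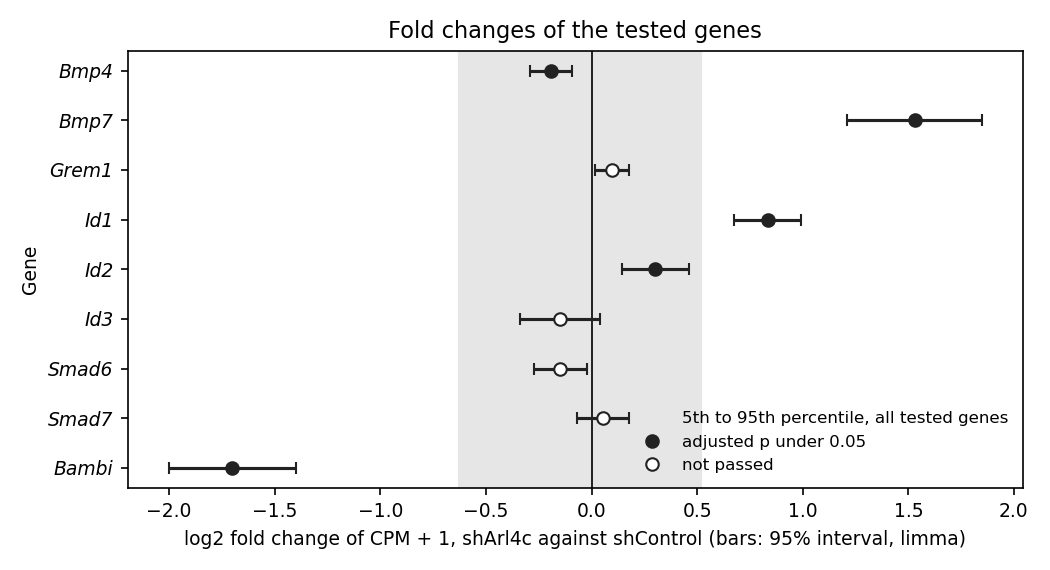
Log2 fold change of CPM + 1 for the 9 tested genes, shArl4c against shControl, with 95% intervals from limma; filled points passed an adjusted p under 0.05, open points did not, and the grey band spans the 5th to 95th percentile of all tested genes (-0.63 to 0.52). Bmp7, Id1 and Bambi lie outside the band, the other 6 within it.

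Library shArl4c 3 was the lowest of its group in 8 of the 10 genes, the exceptions being Bmp2 and Smad6. The same library was the lowest of its group in 43.3% of all tested genes, against 30.2% for shArl4c 2 and 26.5% for shArl4c 4. Its size factor in the authors' scaling, 1.03, was the highest of the 6 libraries. The calls of Bmp7, Id1, Id2, Bmp4 and Bambi held without it and without each other library in turn.

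Per kilobase of exon the order of mean levels in shControl was Grem1, Id3, Bmp4, Smad6, Id1, Id2, Smad7, Bambi, Bmp7 and Bmp2. No neighbours in this order overlapped between their libraries. In shArl4c, Id1 (24.8 to 27.6 CPM per kb) stood above Smad6 (16.0 to 17.2 CPM per kb), and Bmp7 (1.31 to 1.81 CPM per kb) above Bambi (0.207 to 0.258 CPM per kb), so both pairs had changed places. Id3 and Bmp4 overlapped there, at 61.9 to 78.6 and 60.9 to 67.3 CPM per kb. Lengths were those of all annotated exons merged, which may exceed the transcripts used in these cells.

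The genes whose pattern over the 6 libraries lay nearest to that of Bmp7 were Pdgfb, Lbp and Chst1. Likeness was the distance between log2(CPM + 1) values, each centred on its own mean, among genes averaging 5 CPM or more. The distances were 0.200, 0.244 and 0.247. Pdgfb, a growth factor gene, went from 3.43 ± 0.125 to 11.1 ± 1.05 CPM. For Bambi the nearest were the integrin gene Itga11 (distance 0.108), the P-cadherin gene Cdh3 (0.142) and Adamtsl3 (0.144). Itga11 went from 103 ± 2.97 to 30.7 ± 1.97 CPM. With 2 groups of libraries, such likeness mostly reflects the size of the difference between the groups on the log2(CPM + 1) scale. That scale shrinks changes at low levels, and the ratios of mean CPM were less alike. Itga11, Cdh3 and Adamtsl3 fell 3.35-, 3.55- and 3.39-fold, against 5.17-fold for Bambi. Pdgfb, Lbp and Chst1 rose 3.25-, 2.83- and 3.35-fold, against 4.37-fold for Bmp7.

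The rest of the pathway was read from lists of 66 further genes, of which 50 were tested. In shArl4c 27 of these were lower, 8 were higher and 15 did not pass, and their median log2 fold change was -0.17. Over all tested genes 18.0% were lower and 18.9% higher, with a median of 0.01. The lists were chosen with earlier results of these data known, and some of the osteoblast genes in them had already been described as changed. The counts by list below are to be read beside the shares over all tested genes. They describe the lists and test nothing. The count of higher genes was 5 without shControl 1, and that of lower genes was 23 without shControl 3.

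Of the other BMP-type ligand genes, 7 of 11 were listed and 2 were tested. Bmp6, a ligand related to Bmp7, rose from 11.2 ± 0.860 to 19.2 ± 2.25 CPM, 1.72-fold (log2 fold change 0.73, limma adjusted p = 5.46e-06). Its libraries did not overlap, at 10.4, 12.1 and 11.0 CPM against 21.6, 17.2 and 18.9 CPM. Gdf6 did not pass. Of 4 protease genes acting on ligands or antagonists, 2 fell. Pcsk6, encoding a proprotein convertase, went from 61.2 ± 4.61 to 26.3 ± 1.83 CPM. Tll1, encoding a protease that cleaves the antagonist chordin, went from 2.41 ± 0.283 to 0.150 ± 0.0762 CPM. Its shArl4c values rest on 1 to 3 reads per library. Furin, the main convertase, and Bmp1 did not pass.

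Among 10 tested receptor and co-receptor genes, 3 rose, 4 fell and 3 did not pass. Of the 3 that rose, Rgma kept its call in 13 of 17 alternatives and Rgmb in 11 of 17. Both lost it with DESeq2 (adjusted p = 0.118 and 0.139), without shControl 1 (limma adjusted p = 0.0597 and 0.0957) and without shControl 3 (limma adjusted p = 0.0709 and 0.0562). Of the 4 that fell, Eng kept its call in 8 of 17 alternatives. It too lost the call with DESeq2 (adjusted p = 0.109), without shControl 1 (limma adjusted p = 0.0789) and without shControl 3 (limma adjusted p = 0.159). Rgma, Rgmb, Eng and, below, Smad1, Smurf1, Twsg1 and Fstl3 were named with their values in view. The type I receptor genes went both ways: Bmpr1b rose from 7.13 ± 0.300 to 11.1 ± 0.637 CPM, Acvr1 fell from 52.1 ± 2.18 to 39.3 ± 0.816 CPM, and Bmpr1a (named after its values were seen) did not pass at 133 ± 5.05 and 128 ± 2.17 CPM. The type II receptor gene Bmpr2 fell 1.15-fold to 193 ± 3.97 CPM and the co-receptor gene Neo1 1.22-fold to 113 ± 3.77 CPM. Of 8 genes for SMADs and their regulators, 5 fell and 2 rose, and of these Smad1 (lower) kept its call in 9 of 17 alternatives and Smurf1 (higher) in 14. Ski, a SMAD co-repressor, fell 1.47-fold from 188 ± 5.57 to 128 ± 0.245 CPM, Smurf2, a ubiquitin ligase acting on SMADs and receptors, 1.25-fold to 147 ± 2.22 CPM, and Smad9 1.24-fold to 26.3 ± 0.890 CPM, whereas Skil, a relative of Ski, rose 1.22-fold to 58.1 ± 1.21 CPM. Smad4, chosen after its values were seen, had a log2 fold change of -0.04 and did not pass.

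Of 10 tested genes for other secreted antagonists and modulators, 5 fell, 1 rose and 4 did not pass, and of those that fell Twsg1 kept its call in 12 of 17 alternatives and Fstl3 in 15. Nog, encoding noggin, fell from 6.02 ± 0.920 to 3.61 ± 0.205 CPM, and Nbl1 from 28.0 ± 2.10 to 19.2 ± 0.686 CPM. Bmper, which binds BMPs outside the cell, rose 1.43-fold to 59.4 ± 1.59 CPM.

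Of 13 tested genes listed as other BMP response genes, 10 were lower in shArl4c, 1 was higher and 2 did not pass, and the median log2 fold change was -0.49, beside 18.0% lower, 18.9% higher and a median of 0.01 over all tested genes. Since the lists were chosen with earlier results of these data known, including changes of some osteoblast genes, these counts describe the list and test nothing. The 4 genes of this list with the smallest p were osteoblast genes. Sp7, encoding osterix, went from 23.4 ± 0.813 to 1.37 ± 0.0903 CPM, Alpl, encoding tissue-nonspecific alkaline phosphatase, from 45.1 ± 1.92 to 20.5 ± 2.16 CPM, Dlx5, a homeobox gene, from 5.92 ± 0.279 to 0.796 ± 0.172 CPM, and Runx2, a master regulator of bone, from 143 ± 2.93 to 112 ± 6.34 CPM. Id4, the remaining ID gene, fell 1.44-fold, from 14.0, 13.7 and 13.7 CPM to 9.29, 9.44 and 9.95 CPM (limma adjusted p = 0.000282), so the 4 ID genes included 2 that rose, 1 that fell and 1 that did not pass. Msx1 and Msx2, homeobox genes of tooth and skull that respond to BMP, fell as well (log2 fold changes -0.34 and -0.56), and Dlx3 rose (0.78). Id4, Msx1, Msx2 and Dlx3 were named with their values in view. Of 3 genes for bHLH partners of ID proteins, Tcf4 fell from 273 ± 5.39 to 163 ± 7.49 CPM, and Tcf3 and Tcf12 did not pass.

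**Figure D3:**
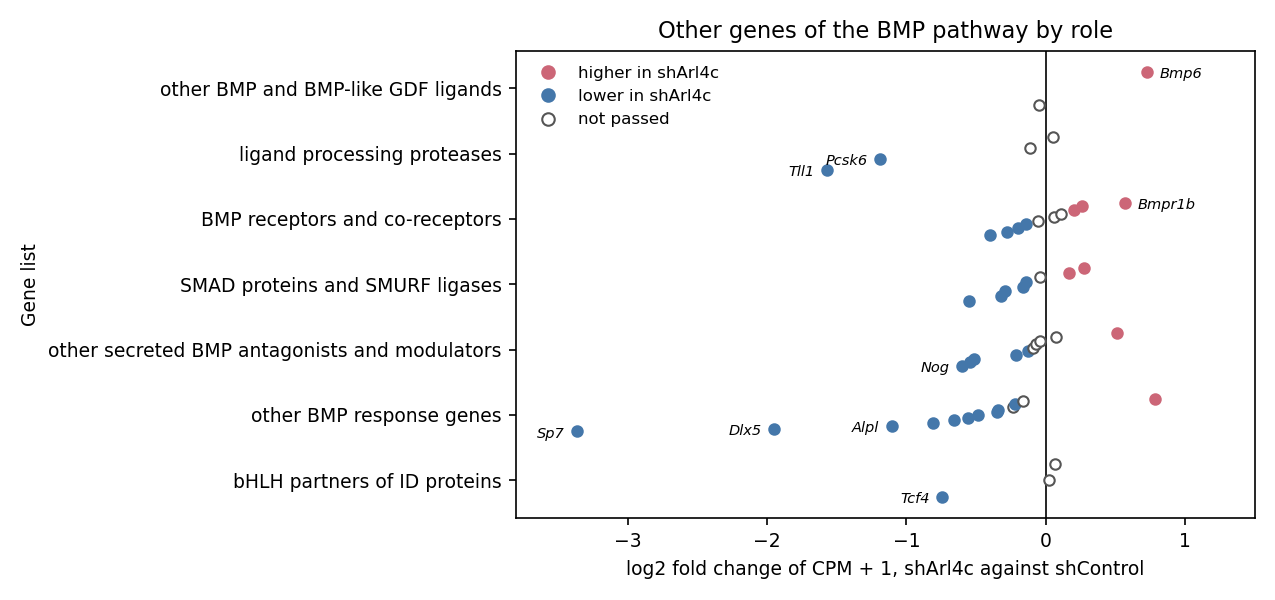
Log2 fold change of CPM + 1, shArl4c against shControl, for the 50 tested genes of the further lists, by role; red points rose, blue points fell and open points did not pass. The response genes lie mostly to the left of 0, with Sp7 at -3.36 and Dlx5 at -1.95, while the ligand gene Bmp6 lies at 0.73.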

How the data were processed

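RNA libraries of mDE6 cells, 3 shControl and 3 shArl4c, were made with a directional kit, per the labels' protocols. The authors deposited 1 table of CPM values per gene and library. Trimmomatic 0.38, RSEM 1.3.0, Bowtie2, edgeR and build GRCm39 were named, per the submitters' processing notes, without order or settings, and no label or header says whether counting used strand. All values (100%, within 0.001 of a read) were whole multiples of 1 step per column, so reads were recovered. A count of 0 allows up to 3 reads, 0.202 to 0.248 CPM, for counting error only. Columns were mapped to groups, not to samples: those naming luc as shControl, those naming the Arl4c hairpin (misspelt) as shArl4c. Symbols matched 21880 of 22032 identifiers.

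Genes averaging at least 1 CPM were fitted as log2(CPM + 1) with limma 3.58.1 in R 4.3.3 (trend, robust, no covariate), tested also on simulated data. Recovered reads were tested with edgeR 4.0.16 (5303 genes called) and DESeq2 1.42.0 (4108), against 5445 by limma. Other alternatives changed the pseudocount, filter, scaling, moderation or left out each library. Pairs of genes were compared by exact permutation. The members and lists were chosen with earlier results of these data known. Named were Arl4c, the 10 genes, up to 4 genes of smallest p per further list, the 3 nearest to the largest rise and fall, and the markers; the values of 1 such gene are not reported here.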

Additional observations from a re-analysis of the deposited data

How the results depend on the processing

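Under 17 alternatives, or 16 for Bmp7 and Bambi, which the 5 CPM filter leaves out, the calls of Bmp7, Id1, Id2, Bambi and Arl4c held, and no direction turned for any of the 9 tested genes. Log2 fold changes ran from 0.71 to 0.88 for Id1, from 0.25 to 0.39 for Id2 and from -0.22 to -0.15 for Bmp4. Those of Bmp7 ran from 0.76 to 2.12 and those of Bambi from -2.38 to -0.84, with ends on unlike scales. The values 0.76 and -0.84 used a pseudocount of 5, while 2.12 and -2.38 came from DESeq2 on reads. With a pseudocount of 1, leaving out single libraries gave 1.43 to 1.63 for Bmp7 and -1.75 to -1.66 for Bambi. Bmp4 kept its call in 16 of 17. The 17 and 16 include TMM rescaling with edgeR, which returned the main values (5445 genes called in both) and so adds no separate check. Grem1 and Smad6 each passed in 3 of 17. Grem1 did so without shArl4c 3, after quantile normalization (limma adjusted p = 0.0254) and in plain CPM (limma adjusted p = 0.00316). Plain CPM scales by library size without the authors' size factor. It moved calls over all genes upward too, with 3419 higher and 2339 lower, against 2790 and 2655 in the main fit. Id3 and Smad7 passed in 0 of 17. The count of lower genes among the 10 was 1 instead of 2 with the 5 CPM filter, which leaves out Bambi, and 1 without trend and robust moderation, where Bmp4 did not pass. Among the further pathway genes, the count of higher genes without 1 library ran from 5 to 8, against 8 with all. That of lower genes ran from 23 to 28, against 27 with all. No paired analysis was possible because the table's column numbers (1 to 3 and 2 to 4) were not matched to the labels' replicates. Depth limits Bmp2, at 4 to 14 reads per library.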
